A study of Mus musculus with 18 samples.

Results

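The voltage-gated calcium and sodium channel genes were taken as the protein-coding genes whose symbols begin with Cacna, Cacnb or Cacng, or read Scn, a number and a or b. This gave 40 genes of the 55487 in the count table, of which 21936 are protein coding. RNA was sequenced from cells sorted from mouse retina into viable CD11b+ cells, called microglia here, and viable CD11b- cells, called retina here, which hold the neurons and the other cells. CD11b marks the surface of myeloid cells, to which microglia belong. DAPI, a dye that enters dead cells, was the viability gate. In control mice Bmal1, a gene of the circadian clock, was floxed (genotype Bmal1f/f), and knockout mice lacked Bmal1 in microglia (genotype Bmal1-mg/-mg). The labels give neither the driver of the deletion nor the age, sex or time of day of the mice. The 18 libraries were 4 control and 5 knockout samples of either fraction. The labels do not say that each sample came from a separate mouse, so the spread behind each p-value is that between samples and may be technical.

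A voltage-gated calcium channel consists of a pore, the alpha1 subunit, that opens on depolarization, with auxiliary beta and alpha2delta subunits that set its traffic to the membrane and its gating. L-type pores that inactivate slowly drive continuous glutamate release at the ribbon synapses of photoreceptors and bipolar cells, T-type pores open near the resting potential, and P/Q-, N- and R-type pores serve fast release at most other synapses. The gamma genes encode muscle channel subunits or TARPs, proteins that carry and tune AMPA-type glutamate receptors. Voltage-gated sodium channels, with a pore-forming alpha and one or more beta subunits, carry action potentials, which retinal ganglion cells and some amacrine and bipolar cells fire and rods do not need to signal.

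Libraries held 32277156 to 47563119 counts in total. Levels are given as CPM, counts scaled to library size, and 3 counts stood for 0.0631 to 0.0929 CPM. The cDNA was amplified from 1 to 2 ng of RNA, and amplified reads are not independent molecules, so counting limits below cover counting error only. The 40 genes took 0.143% to 0.181% of the counts in control retina, 0.179% to 0.194% in knockout retina, 0.0182% to 0.0307% in control microglia and 0.0195% to 0.0301% in knockout microglia. The fractions matched their labels in their markers. The 16 microglial genes summed to between 65589 and 72455 CPM in control microglia and between 15.3 and 27.5 CPM in control retina, where Aif1, Fcrls, Gpr34 and Siglech had no count. The 22 rod genes summed to 206922 to 298939 CPM in control retina, and still to 9331 to 13594 CPM in control microglia. The targeted gene, listed as Arntl (ENSMUSG00000055116), had 9.36 to 25.5 CPM in control and 1.97 to 23.1 CPM in knockout microglia (log2 change -0.44, SE 0.62, edgeR adjusted p = 0.999), and its count covers the whole gene, so the genotypes were taken as labelled.

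Promoters of 3 members are shown because they belong to the members on which the results turn: Cacna1f, the pore gene with the highest level in retina, Cacna1s, which differed most between the genotypes in retina, and Scn7a, which did so in microglia. Each is the 250 bases before the RefSeq start on GRCm38.p6, written 5′ to 3′ on the strand of the gene, with capitals for the letters TAATCC, a motif bound by the photoreceptor and bipolar factors CRX and OTX2. The GENCODE start of each of the 3 genes lies inside its window. Cacna1f lies at chrX:7606853-7607102 on the plus strand and holds no such letters.
Cacna1f: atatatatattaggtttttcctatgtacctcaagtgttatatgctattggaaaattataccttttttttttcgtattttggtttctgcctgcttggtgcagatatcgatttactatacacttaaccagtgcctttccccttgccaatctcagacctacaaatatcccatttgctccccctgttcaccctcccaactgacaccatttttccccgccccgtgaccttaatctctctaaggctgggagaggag
Cacna1s lies at chr1:136052561-136052810 on the plus strand, with the motif 54 to 49 bases before the RefSeq start. The GENCODE start of this gene, at 136052750, comes before the motif, so by that start the motif lies inside the gene.
Cacna1s: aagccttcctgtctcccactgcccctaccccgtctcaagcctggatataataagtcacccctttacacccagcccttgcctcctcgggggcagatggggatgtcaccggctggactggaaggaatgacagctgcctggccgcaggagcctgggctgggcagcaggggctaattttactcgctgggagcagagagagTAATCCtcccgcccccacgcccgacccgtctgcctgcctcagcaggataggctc
Scn7a lies at chr2:66784911-66785160 on the minus strand, with the motif 228 to 223 bases before the start.
Scn7a: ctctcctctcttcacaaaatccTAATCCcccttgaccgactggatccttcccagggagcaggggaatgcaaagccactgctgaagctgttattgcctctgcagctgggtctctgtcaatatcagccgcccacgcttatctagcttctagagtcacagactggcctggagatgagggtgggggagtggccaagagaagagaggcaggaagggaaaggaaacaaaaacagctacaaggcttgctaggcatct

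RefSeq gave 41 promoters for 30 of the 40 genes. TAATCC or its reverse complement GGATTA stood in 3 of the 41 (7.32%: Cacna1s, Scn7a and Cacng8), against 6.25% of all 32851 promoters of the same length. The E-box CACGTG, the palindrome to which BMAL1 binds with CLOCK, stood in 0 of the 41, against 6.02% of all promoters. These are counts of letters in a window and say nothing of binding.

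Levels between genes were compared as length-scaled CPM, which is CPM per kilobase of exon rescaled to the same sum in each library, over the exon union of GENCODE M21. By mean level, a single set of subunits stood far above the rest in control retina. In control retina Cacna2d4, an alpha2delta subunit of photoreceptor channels, had 262 ± 30.4 length-scaled CPM (SD, n = 4), Cacna1f, the L-type pore of photoreceptor ribbon synapses, 175 ± 28.1, and Cacnb2, a beta subunit found with it there, 73.0 ± 17.1. These 3 did not overlap, with 233 to 299, 155 to 217 and 60.3 to 98.2 across the 4 libraries. The level of Cacnb2 depended on the length used: with the longest protein-coding transcript, a choice made after seeing the data, its level was 170.4, beside 182 for Cacna1f, and the order of the 3 by their means was the same. The next members were Cacng5 at 21.7 ± 21.5, Cacng4 at 19.8 ± 7.02 and Scn4a at 16.2 ± 4.86, whose ranges overlapped. Cacna2d4, Cacna1f and Cacnb2 came in the same order in knockout retina, at 304 ± 20.5, 187 ± 18.9 and 58.7 ± 5.58 (n = 5). The T-type pore gene Cacna1h, at 51.6 ± 21.7 (29.7 to 88.0), overlapped Cacnb2 (53.8 to 67.7) there.

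The L-type pores beside Cacna1f were low. Cacna1d, the L-type pore of many neurons and endocrine cells, had 1.70 ± 1.60 length-scaled CPM in control retina, Cacna1s, the pore and voltage sensor of skeletal muscle, had 0.0901 ± 0.0989, and Cacna1c, the cardiac and smooth muscle pore, had no read in the 4 libraries. The P/Q-, N- and R-type pores Cacna1a, Cacna1b and Cacna1e summed to 0.654 ± 0.569, and the highest of them, Cacna1a, had 1.30, 0.407, 0 and 0.211 in control replicates 1 to 4. The T-type pores summed to 13.5 ± 11.3, nearly all of it from Cacna1h. Their sum ran from 4.36 to 29.7 over the libraries, and that of the L-type pores from 156 to 217.

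The TARP genes summed to 60.0 ± 23.5 length-scaled CPM in control retina, the sodium channel alpha genes to 27.3 ± 6.57, and the sodium channel beta genes to 8.93 ± 11.1. Scn4a, the sodium channel of skeletal muscle, led the alpha genes, with 14.0, 14.6, 23.4 and 12.9 in control retina. Scn8a, the alpha subunit of the axon initial segment and nodes, came next with 10.5, 3.22, 3.85 and 6.58. Scn1a, a pore of fast-spiking neurons, was read in 3 of the 4 libraries. The muscle-type gamma genes Cacng1 and Cacng6 had no read in either retina group, which allows up to 3 counts in each library.

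In microglia the order was different. Among the members reported here Cacna2d4, at 14.4 ± 8.51 length-scaled CPM in control microglia, was the highest. The sodium channel alpha genes summed to 4.44 ± 1.85 in control and 0.754 ± 0.749 in knockout microglia, with no test on these sums. Cacnb2 (6.33 ± 3.78), Cacna1d (5.72 ± 2.68), Cacna1f (5.62 ± 5.58) and Cacng3 (3.97 ± 4.01) followed, with overlapping ranges. With the length of the longest transcript Cacna1f came before Cacna1d.

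Many members were read only in some libraries of a group. Of the 40, the number read in at least one but not every library was 24 in control microglia, 30 in knockout microglia, 20 in control retina and 13 in knockout retina. Read in all 18 libraries were 7 members (Cacna1d, Cacna1f, Cacna2d2, Cacna2d3, Cacna2d4, Cacnb2 and Cacng4), Cacng1 was read in none, and Cacna1e, Cacng1, Cacng6 and Scn10a had fewer than 30 reads in all. A group total could rest on 1 library: all 482 Cacna1s reads of knockout microglia came from replicate 2, all 240 Cacng5 reads from replicate 3, and all 183 Scn3b reads from replicate 5.

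**Figure D1:**
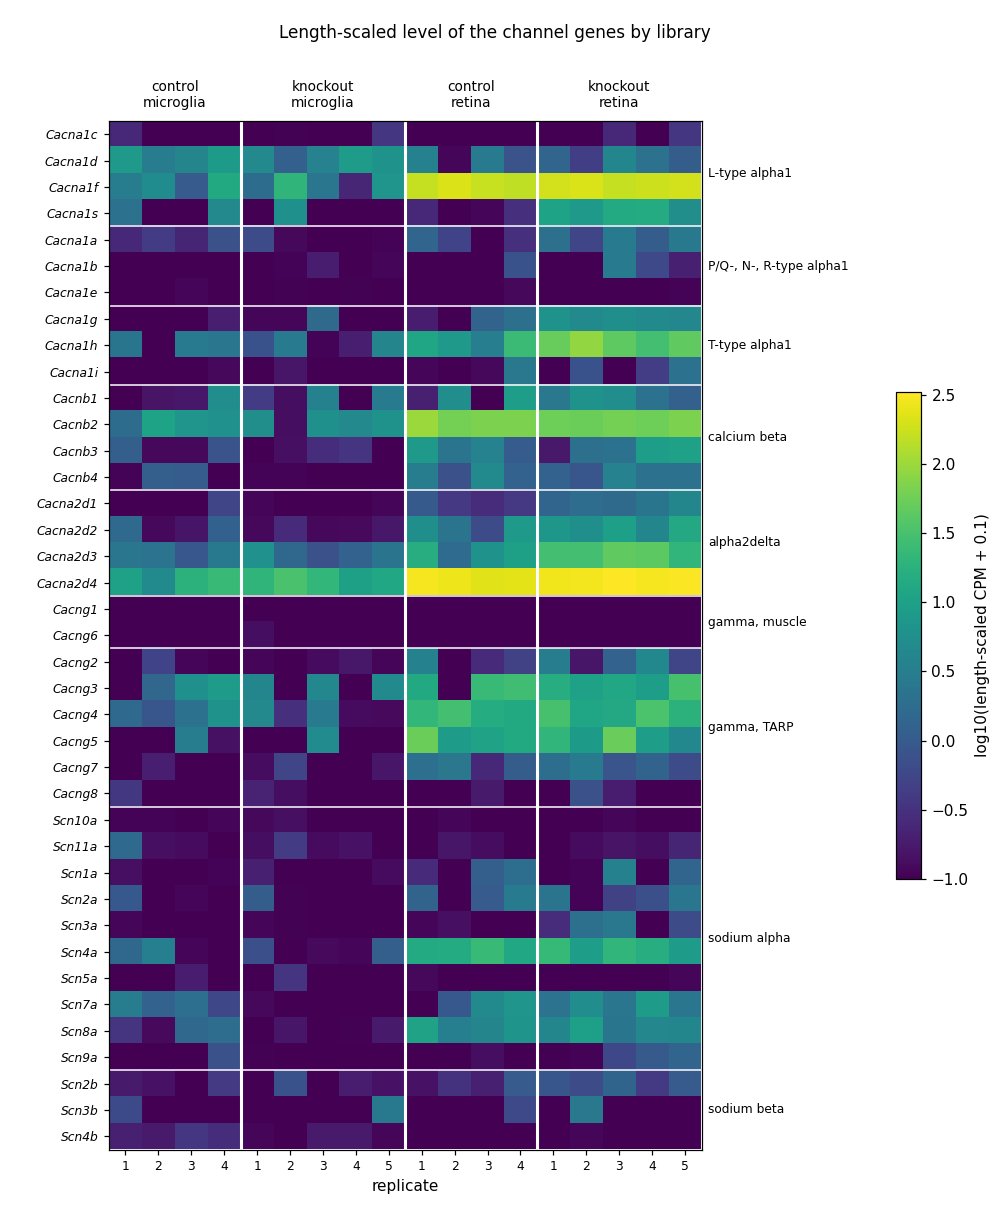
Each cell shows the log10 of the length-scaled CPM plus 0.1 of 39 of the 40 channel genes (rows, grouped by subunit class) in a library (columns, by replicate within the 4 groups). Cacna2d4, Cacna1f and Cacnb2 have the highest means in both retina groups, though Cacna1h (88.0) is above Cacnb2 (53.8) in knockout retina replicate 2. Many other rows are filled in some libraries of a group only, fewest in knockout retina, where 25 of the 40 genes are read in every library.

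The control fractions were compared to ask in which of them each member was higher. Of the 40 members 21 passed the filter on low counts, and 4 of these were higher in retina at an adjusted p under 0.05, against 17.4% of the 15188 genes tested (40.2% were called in either direction). The 4 were Cacna1f, Cacna2d4, Cacnb2 and Cacng4. None was lower in retina, where 22.8% of all genes were. The median log2 difference of the 21 was 2.23, against -0.02 for all genes. At an unadjusted p under 0.05 there were 7 members, against 48.4% of all genes. DESeq2 called 9 members (8 higher and 1 lower in retina), against 41.7% of the genes it tested. limma voom called 10 (9 and 1), against 49.5%, and voom with quality weights 10 (9 and 1), against 49.6%. With no filter on low counts edgeR also called 1 as lower.

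Cacna1f (ENSMUSG00000031142, chromosome X, 7607083 to 7635196, plus strand, GRCm38) had 8.57, 14.9, 2.77 and 39.2 CPM in control microglia and 369, 579, 427 and 353 CPM in control retina. Every retina library lay above every microglia library, and the fitted difference between the groups was 26.4-fold (95% interval 7.54 to 92.7, edgeR adjusted p = 0.00184). Cacna2d4 (ENSMUSG00000041460, chromosome 6, 119236526 to 119352407, plus strand) had 32.2, 14.6, 56.6 and 72.5 CPM in microglia and 703, 760.5, 626 and 575 CPM in retina. This was a 15.1-fold difference (6.97 to 32.9, adjusted p = 0.000409), without overlap.

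Cacnb2 (ENSMUSG00000057914, chromosome 2, 14603088 to 14987908, plus strand) had 7.19, 46.6, 29.3 and 25.3 CPM in microglia and 322, 235, 249 and 222 CPM in retina, a 9.49-fold difference (4.18 to 21.6, adjusted p = 0.00144). Cacng4, a TARP, had 1.76, 0.885, 2.32 and 7.06 CPM in microglia and 18.8, 30.6, 15.3 and 12.4 CPM in retina (6.41-fold, 2.08 to 19.8, adjusted p = 0.0170). Both groups of values were separate for either gene. Cacng4 was not called without control microglia replicate 1 (adjusted p = 0.0506) or replicate 3 (0.0512), over a range of 0.0004 to 0.0605 in its 15 alternatives.

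Rod markers were higher in retina in the same comparison, with 22 of 22 called and a median log2 difference of 4.34, beside 4.72 for Cacna1f, 3.92 for Cacna2d4 and 3.25 for Cacnb2. The share of the microglia libraries' reads of these members that came with rod RNA was not tested. Cacna1d had 32.7, 12, 16.2 and 32.4 CPM in microglia and 10.6, 0.0569, 9.64 and 2.23 CPM in retina, without overlap and not called (log2 -2.05, SE 1.14, adjusted p = 0.191).

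**Figure D2:**
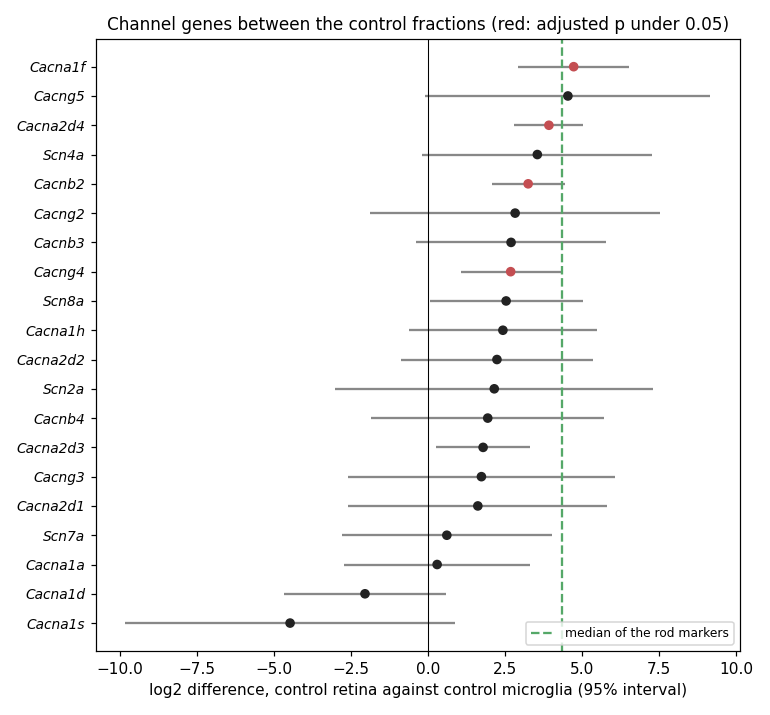
Points give the log2 difference of control retina against control microglia for 20 of the 21 members tested, with 95% intervals, red at an adjusted p under 0.05, and the dashed line gives the median of the rod markers (4.34). The 4 red points lie between 2.68 and 4.72, and Cacna1s and Cacna1d are the members shown with negative differences.

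The retina comparison asked how the cells around the microglia differ when microglia lack Bmal1. Of the 40 members 29 passed the filter, and 1 was called, Cacna1s, which was higher in knockout retina. Of all 15332 genes tested 1.66% were called, 1.34% as higher. In 6 of the 29 the control and knockout libraries did not overlap, against 8.82% of all genes tested. These were 5 higher, against 5.62%, and 1 lower, against 3.20%. At an unadjusted p under 0.05 there were 6 members, against 14.2% of all genes. The median log2 change of the 29 was 0.24, against 0.003 for all genes, and 16 changes were positive, against 50.2% of all. The 29 include members that passed the filter only through the group in which they were high. DESeq2 called 6 members, against 9.69% of the genes it tested: Cacna1s, Cacna1h, Cacna2d1, Cacna2d3 and Scn3a as higher and Cacnb2 as lower.

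Cacna1s (ENSMUSG00000026407, chromosome 1, 136052750 to 136119822, plus strand) had 0.250, 0, 0.0280 and 0.358 CPM in control retina and 19.4, 14.1, 23.8, 24 and 9.27 CPM in knockout retina. In counts, these were 12, 0, 1 and 16 reads against 713, 622, 900, 976 and 372. The lowest knockout library lay far above the highest control, and the log2 change was 6.77 (SE 1.11, 95% interval 4.29 to 9.26, edgeR adjusted p = 0.0225). On the length-scaled scale the gene moved from 0.0901 ± 0.0989 to 10.7 ± 3.94, still well under Cacna1f. Of its 6550 exonic bases 1309 lie opposite exons of the antisense gene Gm37759, which had 0 reads in control and 1 read in knockout retina.

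The call of Cacna1s was kept in 12 of 20 alternatives. It was lost with quality weights (adjusted p = 0.0583), the replicate block (0.135), all 18 libraries in one fit (0.316), the number of genes with a count (0.288), the rod level (1) or the bipolar level (0.997) as a covariate, and without knockout replicate 3 (0.0607) or 4 (0.0560). The log2 change was 6.66 and 6.67 without those knockout libraries, 7.55 with quality weights, 7.70 with the block and 6.84 with all 18 libraries. It was 4.76 with the number of genes, 4.17 with the rod level and 1.47 with the bipolar level as a covariate. With the block, the rod level or the bipolar level 0 of all 15332 genes were called, and with the number of genes 2.

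T-type pores came next. Cacna1h (ENSMUSG00000024112, chromosome 17, 25374285 to 25433783, minus strand) had 31.0, 23.4, 9.07 and 66.7 CPM in control retina and 129, 229.7, 111, 72.7 and 119 CPM in knockout retina. The groups did not overlap, with 66.7 against 72.7 CPM at the nearest, and the change was not called (log2 2.02, SE 0.54, adjusted p = 0.105). Without control replicate 4 it was (log2 2.66, adjusted p = 0.0366, and 0.00262 to 1 over 20 alternatives). Cacna1g, another T-type pore, had 0.229, 0, 3.64 and 5.21 CPM in the control libraries against 16.6, 12.9, 14.7, 11.9 and 10.9 CPM in the knockout libraries. It was chosen after its values were seen, since its groups do not overlap, and was not called (log2 2.56, SE 1.25, adjusted p = 0.410). Cacna1i, the remaining T-type pore, had up to 6.53 CPM in the control libraries against 5.18 CPM in the knockout libraries, with libraries at 0 in both.

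Among the auxiliary subunits, Cacna2d3 (ENSMUSG00000021991, chromosome 14, 28904943 to 29721864, minus strand) had 36.3, 4.28, 16.3 and 23.2 CPM in the control libraries against 68.4, 67.8, 102, 93.2 and 48 CPM in the knockout libraries. The lowest knockout library lay above the highest control (log2 1.92, SE 0.52, adjusted p = 0.107). Cacna2d1, the alpha2delta subunit that binds gabapentin, had 3.0, 1.11, 0.672 and 0.939 CPM in the control libraries against 4.32, 5.77, 4.96, 6.99 and 13 CPM in the knockout libraries (log2 2.29, SE 0.65, adjusted p = 0.120), also without overlap. Cacnb2 went the other way, with 346, 247, 261 and 238 CPM in the control libraries against 195, 190.4, 206, 187 and 234 CPM in the knockout libraries. Its 234 and 238 CPM nearly touched (log2 -0.43, SE 0.13, adjusted p = 0.147).

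The partners of Cacnb2 in photoreceptor channels were not called either, and no test compared their changes with that of Cacnb2. Cacna1f had 397, 609, 447 and 379 CPM in control and 464, 517, 378, 406 and 458 CPM in knockout retina. These groups overlapped, and the 95% interval of the fold was 0.762 to 1.24 (log2 -0.04, SE 0.16, adjusted p = 0.960). Cacna2d4 had 756, 800.2, 656 and 616 CPM in the control libraries against 712, 738, 811, 707 and 786 CPM in the knockout libraries. The interval of its fold was 0.913 to 1.24 (log2 0.09, SE 0.10, adjusted p = 0.804), the narrowest of the 29 on the log2 scale. The sign for Cacna1f was positive in several alternatives, among them the rod covariate (log2 0.60).

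Among the sodium channel genes, Scn3a, an alpha subunit best known from the developing brain, had 0.0417, 0.150, 0 and 0 CPM in the control libraries against 0.597, 6.22, 7.84, 0 and 1.82 CPM in the knockout libraries. A knockout library at 0 made the groups overlap (log2 6.05, SE 2.02, adjusted p = 0.188). Scn9a, a pore of pain-sensing neurons, did not pass the filter and had 0, 0, 0.140 and 0 against 0, 0.0226, 1.56, 2.90 and 4.31 CPM. Scn1a, Scn2a, Scn3a, Scn7a and Scn9a lie together on chromosome 2 and are close paralogs, so that reads shared among them are uncertain. The most abundant sodium channel gene, Scn4a, had 24.5 to 49.0 CPM in controls and 15.9 to 43.1 in knockouts (log2 -0.22, SE 0.35, adjusted p = 0.885). Scn8a had 15.7 to 44.3 CPM in controls and 9.06 to 41.1 in knockouts (log2 -0.40, SE 0.47, adjusted p = 0.813).

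The other members tested in retina had adjusted p-values from 0.632 (Cacna1a) to 0.998 (Cacna1i). Cacna1a had 3.96, 1.44, 0 and 0.648 CPM in the control libraries against 5.70, 1.34, 8.21, 2.88 and 7.70 CPM in the knockout libraries, which overlapped (log2 1.77, SE 1.26). Cacng5 had 54.9, 10.1, 12.1 and 14.3 CPM in the control libraries against 21.2, 8.35, 50.6, 8.81 and 4.31 CPM in the knockout libraries, with 1 high library in either group. Cacna1c had 0 reads over the 4 controls and 89 in the knockouts, at least 25.6-fold higher per total count against a floor of 3 counts over the group, with all of them in 2 of the 5 knockout libraries.

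**Figure D3:**
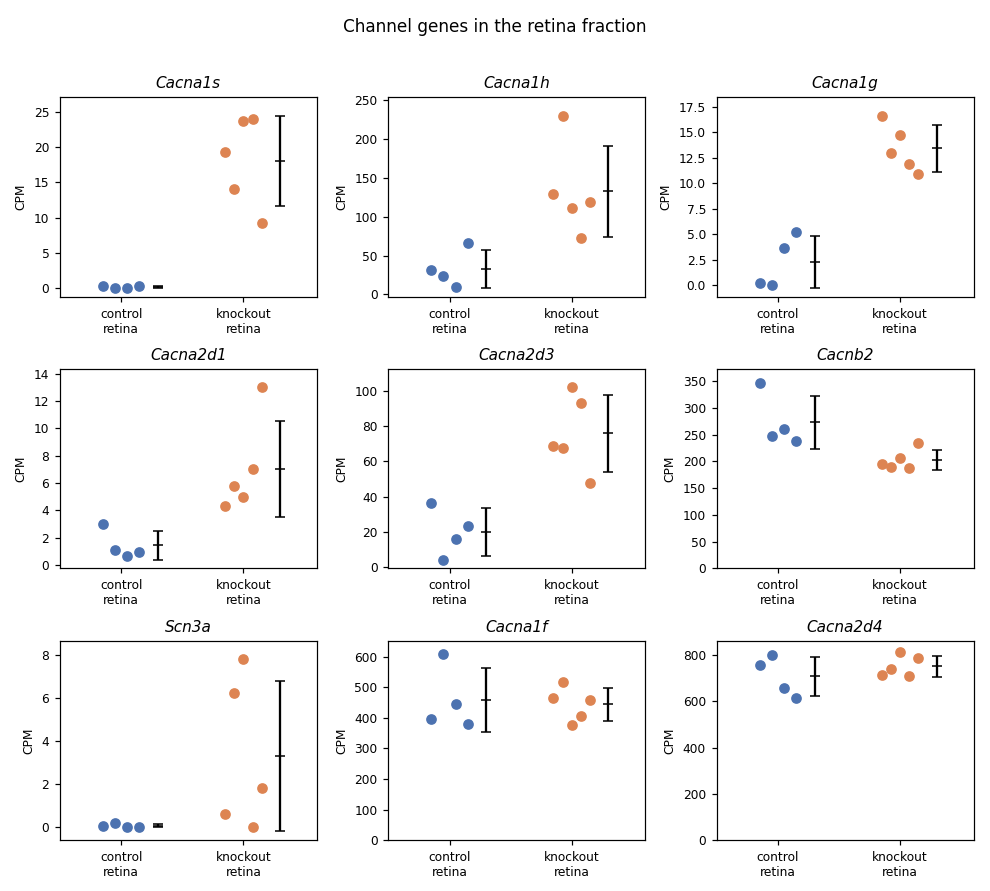
Points are CPM in each retina library, with the mean and SD beside them, for 9 members in control and knockout retina. Cacna1s, Cacna1h, Cacna1g, Cacna2d1 and Cacna2d3 are higher and Cacnb2 lower without overlap, and Cacna1f and Cacna2d4 overlap.

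Cell type markers differed between the same libraries. Among all 15332 genes tested in retina edgeR called 205 (1.34%) as higher and 50 as lower. Bipolar genes summed to 661 to 1530.0 CPM in control and 2696 to 4534 CPM in knockout retina, with 9 of 18 called as higher (median log2 1.70). Cone genes summed to 1550.3 to 2635 and 3457 to 7272 CPM, with 4 of 14 higher (1.60). Rod genes summed to 206922 to 298939 and 155439 to 196643 CPM, with 6 of 22 lower (-0.56). None of these sums overlapped. Horizontal cell genes summed to 22.8 to 91.8 and 123 to 227 CPM, also without overlap, with 0 of 3 tested called (1.51). Prox1 alone made 41.7 of a mean horizontal cell sum of 61.3 CPM in control, and 149 of 180 CPM in knockout retina. This sum therefore mostly follows Prox1. Endothelial and mural genes summed to 125 to 249.6 and 242 to 549 CPM, which overlapped, with 1 of 10 tested higher (1.23). This was Tie1, an endothelial receptor, at 0 CPM in the controls and 3.56 to 21.8 CPM in the knockouts (adjusted p = 0.0155). Amacrine genes summed to 251 to 713 and 614 to 765 CPM, with 1 of 10 tested higher (0.69), and 0 of 9 ganglion cell genes tested were called (0.01). Müller glia and astrocyte genes summed to 1719 to 4441 and 3398 to 6321 CPM, which overlapped, with 0 of 10 tested called (0.65). In bulk libraries a smaller share of a cell type and less RNA per cell cannot be told apart. With the rod level as a covariate Cacna2d3 had a log2 change of -0.04, and with the bipolar level -1.46, against 1.92 without. Rod and bipolar sums did not overlap between the genotypes, so these fits cannot separate the marker level from the genotype. The rod and the bipolar fit each called 0 of the 15332 genes tested. The number of genes with a count was higher in knockout retina, 18761 to 19713 against 16510 to 18715 in controls, without overlap. The fit with this number as a covariate cannot separate it from the genotype either. The part of the marker differences in the changes of the channel genes was not tested.

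The genes that work with the channels were described from 5 lists, to be read against the 1.66% of all genes called in retina. Of 16 genes of the active zone and release machinery tested in retina 1 was higher, with a median log2 change of 0.23. This was Cabp5, a calmodulin-like protein of bipolar cells that is also on the bipolar list, at 52.5 ± 8.66 CPM in controls and 171 ± 24.2 in knockouts (log2 1.71, SE 0.16, adjusted p = 0.00569). Cabp4, which tunes the photoreceptor channel, had 469 ± 95.9 and 326 ± 35.0 CPM (log2 -0.52, SE 0.14, adjusted p = 0.110). Cabp1, Syt1 and the other tested genes of the list did not pass.

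Of 9 calmodulin, RGK, STAC and ryanodine receptor genes tested, which regulate or are gated by calcium channels, 2 were higher (median 0.87). Among them Ryr2, an intracellular calcium release channel, had 0.0112 ± 0.0224 CPM in controls and 5.26 ± 4.54 in knockouts (log2 8.46, SE 1.71, adjusted p = 0.0461), with knockout libraries from 0.249 to 10.3. Calm3 just missed the threshold (log2 0.59, SE 0.13, adjusted p = 0.0573).

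Of 11 sodium channel anchors and FGF partners tested 1 was higher (median 0.90). Nrcam, an adhesion molecule of the axon initial segment, had 28.4 ± 11.2 CPM in controls and 97.9 ± 24.1 in knockouts (log2 1.78, SE 0.31, adjusted p = 0.0283). Ank3, which anchors sodium channels, had 50.2 ± 12.2 and 93.6 ± 24.5 CPM (log2 0.90, SE 0.23, adjusted p = 0.0956). None of 4 sodium leak channel genes (median 1.58) and none of 9 calcium pumps and exchangers (median 0.88) was called by edgeR, with 2 and 5 at an unadjusted p under 0.05, against 14.2% of all genes tested. Among them Slc8a3, a sodium-calcium exchanger, had 50.4 ± 14.8 and 108 ± 26.4 CPM (log2 1.10, SE 0.26, adjusted p = 0.0745), and Nalcn, the leak pore, had 4.46 ± 3.22 and 25.9 ± 11.2 CPM (adjusted p = 0.337).

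The microglia comparison asked how the microglia themselves differ without Bmal1. Of the 40 members 14 passed the filter, and edgeR called 0, against 0.115% of the 14835 genes tested. At an unadjusted p under 0.05 there were 3, among them Scn7a and Scn8a, against 5.76% of all genes, and in 2 the groups did not overlap, against 3.36%. DESeq2 called 3, among them Scn7a and Cacnb4 as lower, against 2.77% of the genes it tested, limma voom 1 (Scn7a) against 0.175%, and voom with quality weights 0 against 0.310%. The median log2 change of the 14 was -0.32, against -0.01 for all genes, and 5 changes were positive, against 49.5% of all. The 14 include members, such as Scn7a, that passed the filter only through the group in which they were high.

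Scn7a (ENSMUSG00000034810, chromosome 2, 66673425 to 66784914, minus strand) encodes Nax, a sodium-sensing relative of the voltage-gated pores found in glia. It had 6.82, 2.71, 4.26 and 1.08 CPM in control microglia and 0.0469, 0, 0, 0 and 0 CPM in knockout microglia. Over the groups these were 633 reads against 2, a ratio per total count of 379 (95% counting interval 104 to 3135). All 4 controls had reads and 4 of 5 knockouts had none, and the change was not called by edgeR (log2 -8.16, SE 1.34, adjusted p = 0.0658). DESeq2 (4.2e-09) and voom (0.0494) called it, and without any single library edgeR gave 0.0873 to 0.194. The log2 change was -10.20 without knockout replicate 1, which held both knockout reads, and -8.46 to -7.68 without each of the others. In retina the gene had 0, 1.92, 9.88 and 13.2 CPM in the control libraries against 4.05, 10.2, 4.33, 16.0 and 4.46 CPM in the knockout libraries, which overlapped (log2 0.32, SE 1.27, adjusted p = 0.963).

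Scn8a had 1.18, 0.121, 6.86 and 8.23 CPM in control and 0, 0.337, 0, 0.0324 and 0.426 CPM in knockout microglia. Control replicate 2 fell among the knockouts (log2 -4.66, SE 1.68, adjusted p = 0.698). Cacnb4, a beta subunit of neurons, did not pass the filter and had 0.0227, 3.0, 2.67 and 0 CPM in the control libraries against 0.0234, 0.0259, 0, 0 and 0 CPM in the knockout libraries. Its 237 reads against 2 came from 2 of the controls. Scn9a had 99 reads against 1, all 99 in control replicate 4.

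The calcium channel genes of the microglia libraries overlapped between the genotypes. Cacna2d4 had 31.2, 14.0, 54.0 and 69.0 CPM in the control libraries against 61.7, 101, 64.6, 31.8 and 39.5 CPM in the knockout libraries (log2 0.50, SE 0.48, adjusted p = 0.999). Cacna1d had 31.8, 11.5, 15.4 and 30.8 CPM in the control libraries against 18.8, 4.56, 14.1, 36.2 and 25.4 CPM in the knockout libraries (log2 -0.18, SE 0.55). Cacna1a had 0.523, 1.16, 0.476 and 2.26 CPM in the control libraries against 1.99, 0.0777, 0, 0 and 0.0250 CPM in the knockout libraries (log2 -1.39, SE 1.58, adjusted p = 0.999), so that only knockout replicate 1 reached the controls. Cacnb2 was at 0.155 CPM in knockout replicate 2 and at 19.5 to 26.7 CPM in the other 4 knockouts. With the spread between these libraries the intervals were wide, such as 0.197 to 6.99 for the fold of Cacna1f, which had 111 to 1453 reads in controls and 13 to 2301 reads in knockouts.

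The summed markers of other cells overlapped between the microglia genotypes. Rod genes summed to 9331 to 13594 CPM in control and 6813 to 15009 CPM in knockout microglia. Müller glia and astrocyte genes summed to 1968 to 6996 and 4006 to 6103 CPM, and endothelial and mural genes to 51.5 to 112 and 43.3 to 113 CPM. Apoe alone made 2825 of a mean Müller glia and astrocyte sum of 3748 CPM in control, and 4633 of 5415 CPM in knockout microglia. Its mean in control retina was 693 CPM, so this sum mostly follows Apoe and is no measure of Müller glia RNA. Of the 11 tested genes of that list 4 had a positive log2 change (median -0.32). No gene of these lists was called. At an unadjusted p under 0.05 the rod genes Grk1 (log2 -0.49) and Rp1 and the amacrine gene Pax6 (log2 -3.01) were lower. Rp1 did not overlap, with 69.1 to 119 CPM in control and 20.7 to 67.7 CPM in knockout microglia (log2 -0.87, SE 0.35, adjusted p = 0.784). The number of genes with a count was lower in knockouts, 17343 to 18438 against 18654 to 19363 in controls, without overlap. With this number as a covariate the log2 change was -6.17 for Scn7a (edgeR adjusted p = 0.726) and -4.38 for Scn8a (edgeR adjusted p = 0.967). This fit cannot separate the number of genes from the genotype. In the partner lists with tested members, which held 7, 8, 11 and 14 of them, 0 genes were called by edgeR and 1 had an unadjusted p under 0.05. That was Calm3, at 111 ± 15.1 CPM in controls and 151 ± 18 in knockouts (log2 0.45, SE 0.13, adjusted p = 0.491).

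**Figure D4:**
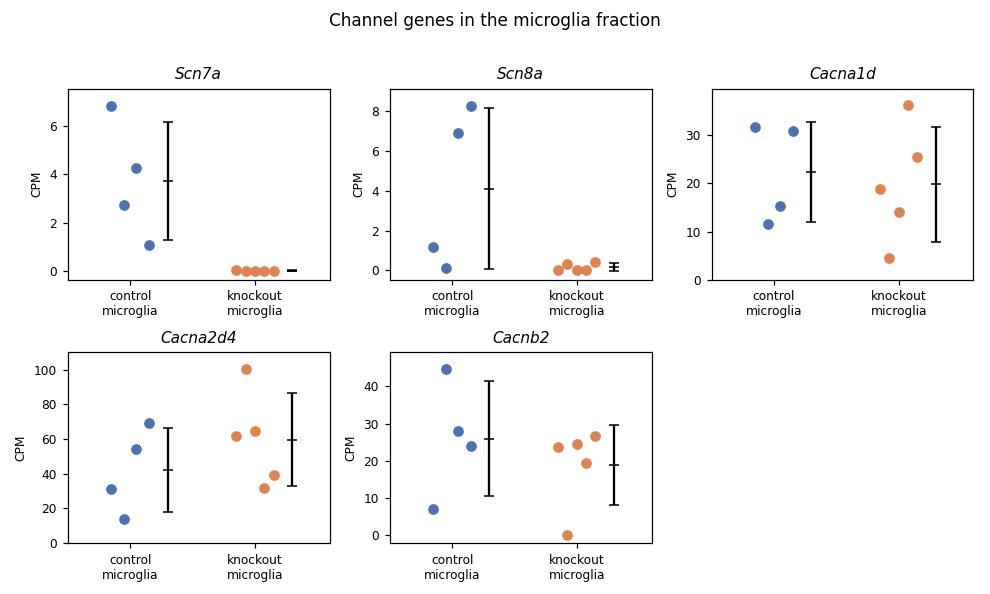
Points are CPM in each microglia library, with the mean and SD beside them, for 5 members in control and knockout microglia. Scn7a is lower without overlap, and Scn8a, Cacna1d, Cacna2d4 and Cacnb2 overlap.

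Whether the genotype difference differed between the fractions was tested with the interaction term over all 18 libraries. Of the 32 members tested edgeR called 0, against 0.469% of all 18128 genes, with 8 at an unadjusted p under 0.05 against 12.5%. DESeq2 called 6, against 5.90% of the genes it tested, and limma voom 0 without and with quality weights, against 0.800% and 0.706%. Scn7a came nearest, with a log2 difference of differences of 8.54 (SE 2.03, adjusted p = 0.0838), and was called by DESeq2 (8.77, adjusted p = 0.000165) and, with edgeR, without control retina replicate 1 (8.11, adjusted p = 0.0321). Cacna1s had 7.21 (SE 3.31, adjusted p = 0.382), and 16.94 (adjusted p = 0.0477) without knockout microglia replicate 2, the only knockout microglia library in which it was read. With all libraries edgeR called neither gene, and over 25 alternatives the adjusted p for Scn7a ran from 0.000165 to 0.510.

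**Figure D5:**
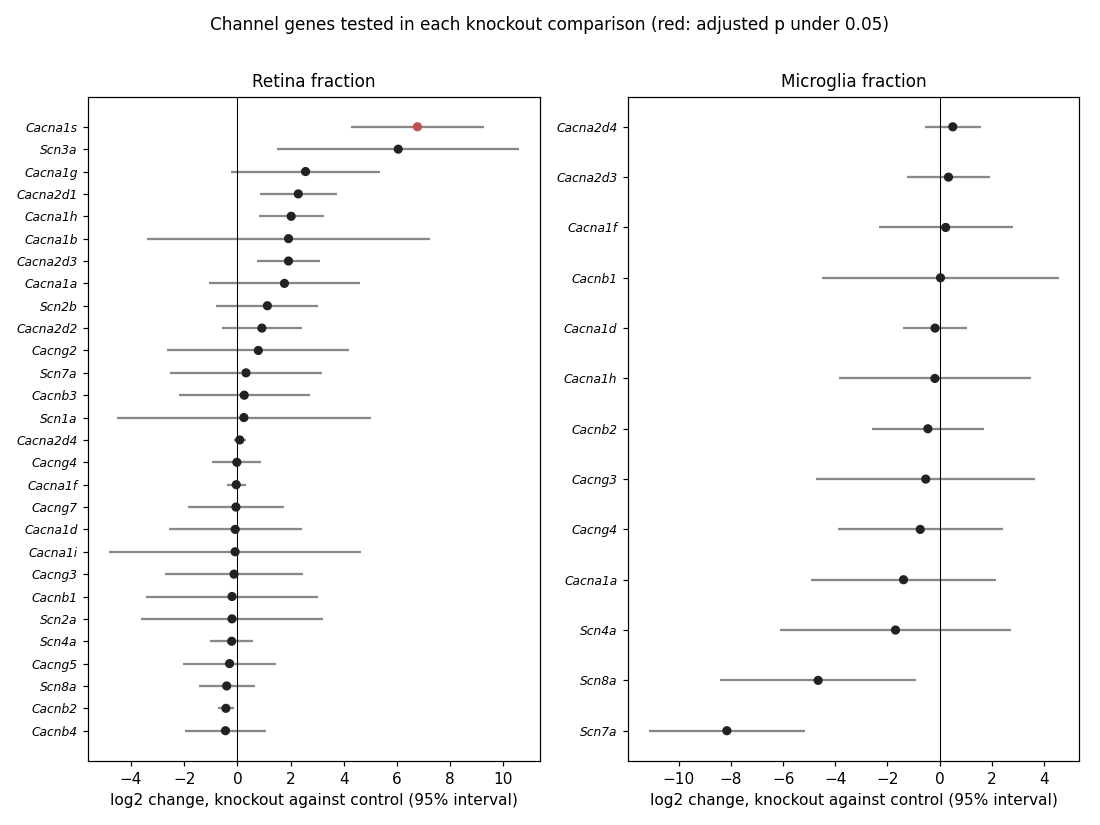
Points give the log2 change of knockout against control with 95% intervals for 28 of the 29 members tested in retina (left) and 13 of the 14 in microglia (right), red at an adjusted p under 0.05. Cacna1s is the only red point, Cacna1f and Cacna2d4 have narrow intervals about 0 in retina, and Scn7a and Scn8a lie lowest in microglia.

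The authors' deposited tables list 25 of the 40 members in retina, of which 3 have an adjusted p under 0.05, against 5.58% of the 13330 genes listed there. In the authors' deposited table these are Cacna1s (log2 change 6.76, adjusted p = 9.5e-08), Cacna1h (2.01, adjusted p = 0.000391) and Cacna2d3 (1.91, adjusted p = 0.00101). In microglia the authors' deposited table lists 11 members and has 1 past that threshold, Scn7a (log2 change -8.17, adjusted p = 0.000173), against 0.592% of 12841 genes.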

How the data were processed

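The authors deposited raw counts per gene for the 18 libraries, with no normalization seen in the values. STAR 2.7.9a, DRAGEN, Subread, featureCounts and the build GRCm38 are named in the submitters' processing notes, without roles, and no source used here says whether counting used strand. Per the file headers, the authors deposited their own results for either knockout comparison as log2 fold changes, log2 mean CPM, a likelihood ratio score, p-values and adjusted p-values. Of 55774 lines 287 repeated an identifier with the same counts, and 55487 genes were kept, 55141 of them in GENCODE M21. Exons of 11 of the 40 members overlap those of another gene.

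Counts were filtered with filterByExpr, scaled by TMM and tested over all genes by the edgeR 4.0.16 quasi-likelihood method (R 4.3.3). A gene was called where the p adjusted by Benjamini-Hochberg was under 0.05. The steps were tested on simulated data. The 9 libraries of a fraction entered its knockout comparison, the 8 control libraries the comparison of the fractions, and all 18 the interaction. CPM use the TMM factors of the comparison beside them, so that a library's values differ slightly between comparisons. The SE of an edgeR log2 change is its absolute value divided by the square root of the F statistic. A 95% interval uses this SE and the total degrees of freedom of the test, residual and prior. Count ratios carry exact 95% intervals, with a floor of 3 counts.

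Members named in full were those called, the highest of each subunit class in either control fraction, the 5 smallest p below the call in each knockout comparison, and the called members of the fractions. Others, such as Cacna1g, Cacna1i, Cacna1c, Cacnb4 and Scn9a, were named after their values were seen. Results of 1 member and 1 gene of another list are not reported here, and the counts include them. The members and lists were chosen with earlier results of these data known. Alternatives were DESeq2 size factors, no filter or 1 CPM in 4 libraries, DESeq2 1.42.0, limma 3.58.1 voom without and with quality weights, the replicate block, all 18 libraries, 3 covariates (number of genes with a count, rod level, bipolar level), each library left out, and, chosen after seeing the data, another transcript length.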

Additional observations from a re-analysis of the deposited data

Results flagged for a closer look

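In 12 of 69 groups of 4 or 5 libraries 1 library stood apart from the others of its group by Dixon's test at the 95% level. For normally distributed values chance flags about 1 in 20, here 3.45. Groups with most libraries at or near 0 do not follow that rate, so the count of 12 cannot be read against it. Values are CPM. Cacna1s had 12.5 in knockout microglia replicate 2 and 0 in the other 4. Cacna1a had 1.99 in knockout microglia replicate 1. Cacng5 stood out in 3 groups, with 3.45 in control microglia replicate 3, 5.93 in knockout microglia replicate 3 and 54.9 in control retina replicate 1. Cacna2d3 had 17.3 in knockout microglia replicate 1, and Cacna2d1 had 1.67 in control microglia replicate 4 and 0 in the other 3. Cacna1g had 0.308 in control microglia replicate 4 and 5.04 in knockout microglia replicate 3. Scn8a had 41.1 in knockout retina replicate 2. Low values were those of Cacna1h, at 0 in control microglia replicate 2 beside at least 6.77 in the others, and Cacnb2, at 0.155 in knockout microglia replicate 2 beside at least 19.5. The cause was not tested.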

How the results depend on the processing

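Of the members, DESeq2 called 3 in microglia, 6 in retina, 6 for the interaction and 9 between the control fractions, against 0, 1, 0 and 4 with edgeR. limma voom called 1 in microglia and 10 between the fractions, also 10 with quality weights. In retina 0 were called with quality weights, with all 18 libraries, or with a covariate (gene number, rod level or bipolar level). Of all genes tested there, 161 were called higher and 59 lower with quality weights, and 199 and 18 with all 18 libraries. The gene number covariate left 2 of 15332 genes called, and the rod or the bipolar level 0. Leaving out each library gave 0 in microglia, 0 to 2 in retina, 0 to 1 for the interaction and 3 to 6 between the fractions. In microglia 19 genes were called higher and 2 lower of 14492 without knockout replicate 5. In retina 95 and 1 of 14830 were called without knockout replicate 3 (0 members). Without control replicate 4 (2 members) it was 306 and 36 of 16001. The interaction called 85 and 17 of 18053 without knockout microglia replicate 2 (1 member). Between the fractions 2339 and 3043 of 15904 were called without control microglia replicate 1 (3 members). The labels do not say that same-numbered samples share an animal, so the numbers were not used as pairs. Deviations of same-numbered samples correlated at -0.0247 to 0.00883 between the fractions of a genotype, and at -0.0720 to 0.0745 between the genotypes. Such low values cannot show that the fractions came from different animals. With the replicate block 0 members were called in retina, where 0 of all 15332 genes were. Between the fractions it called 3 members, with 1927 of 15188 genes higher in retina and 2509 lower.

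Changes of sign were seen for members that were not called. In microglia Cacna1a had a log2 change of 2.35 with the gene number covariate, and Cacna1d had 0.0292 with quality weights and -0.51 to 0.0773 without each library (0.0391 and 0.0192 without control replicates 1 and 4, 0.0773 without knockout replicate 2). In retina Cacna1f had 0.41, 0.60 and 0.93 with the gene number, rod and bipolar covariates and -0.11 to 0.14 without each library (0.14 without control replicate 2, 0.0128 and 0.00476 without knockout replicates 3 and 4). Cacna2d3 had -0.0425 and -1.46 with the rod and bipolar covariates, and Cacna1g had -3.71 with the bipolar covariate. The cause was not tested. Few reads limit the members with libraries at 0.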
